A study of Saccharomyces cerevisiae with 18 samples.

Results

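The 10 genes described here encode the main cytosolic heat shock proteins of Saccharomyces cerevisiae and were chosen by name, by a rule that uses no measured value, although earlier results of these data were known at the time. They are the small heat shock protein genes HSP12 (YFL014W), HSP26 (YBR072W) and HSP42 (YDR171W), the disaggregase gene HSP104 (YLL026W), the Hsp70 genes SSA1 (YAL005C), SSA2 (YLL024C), SSA3 (YBL075C) and SSA4 (YER103W), and the Hsp90 genes HSP82 (YPL240C) and HSC82 (YMR186W). All 10 had values, out of 5739 genes measured. Expression was measured on 18 single-color NimbleGen arrays in the engineered yeast strains EPY330 and EPY338. Cells of both strains were precultured in SD medium lacking histidine, methionine and leucine and were harvested after 24 h of induction at 30 °C in YPG medium. No heat shock and no untreated control are described. The alleles that distinguish the strains are not given in the sources used here. RNA of 3 cultures was pooled for each strain, and each pool was labeled 3 times with each of 3 methods. In the direct random method, cDNA was primed with dye-coupled random nonamers. In the indirect method a reactive dye was coupled to oligo(dT)-primed cDNA after its synthesis. In the ds-cDNA method, oligo(dT)-primed double-stranded cDNA was made first and then labeled. Each strain and method thus had 3 arrays of the same RNA pool, so that the p-values below measure the spread between labelings and hybridizations and not that between cultures.

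Most heat shock proteins bind other proteins that are unfolded or aggregated. Small heat shock proteins of the alpha-crystallin type (Hsp26 and Hsp42) hold such proteins, and Hsp70 proteins bind and refold them in cycles of ATP hydrolysis. Hsp104 pulls aggregates apart together with Hsp70, and Hsp90 completes the folding of client proteins such as kinases and receptors. Transcription of these genes is governed by the heat shock factor Hsf1, by the general stress factors Msn2 and Msn4, or by both. Some members (SSA1, SSA2, HSC82) are highly expressed without stress, whereas SSA3, SSA4 and HSP26 are known for strong induction. SSA1 and SSA2, and likewise HSP82 and HSC82, are close to identical in sequence. Which of the pair a probe detects could not be examined without the probe sequences, so the values of these 4 genes are uncertain to the extent that their probes are shared.

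Values are log2 intensities after normalization of all arrays, and a fold-change is the difference of the mean log2 intensity, EPY330 minus EPY338. A gene was called at an adjusted p under 0.05 in a limma fit of the 6 arrays of that method, with p-values adjusted over all genes. Where 3 values are given in a row for the methods, the order is direct random, indirect, ds-cDNA. With the direct random method, 4 of the 10 genes were called, against 22.4% of all genes. HSP12, HSP26 and SSA2 were higher in EPY330 and HSP42 was lower, and all-gene backgrounds were 11% for higher and 11.4% for lower calls. HSP12 and HSP26 were also called at an adjusted p under 0.01, as were 9.37% of all genes. Indirect labeling gave a call for HSP12 alone, against 9.08% of all genes (4.48% higher and 4.6% lower), and for 0 genes at an adjusted p under 0.01 (3.4% of all genes). Labeling by ds-cDNA gave 2 calls (HSP12 and SSA2, both higher in EPY330), against 6.33% of all genes (3.76% higher and 2.56% lower), and 0 at an adjusted p under 0.01 (1.79%). At an unadjusted p under 0.05 the counts were 6, 1 and 4 of the 10 genes, against 37.3, 25.4 and 24.3% of all genes. The arrays of the strains did not overlap for 6, 4 and 6 genes, against 41.3, 30.2 and 29.2% of all genes.

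The strain differences of the 10 genes were small and of both signs. Above 0 were 7, 6 and 7 of them (46.9, 42.6 and 50.5% of all genes) and below 0 were 3, 4 and 3 (53.1, 57.4 and 49.5%). Their median log2 fold-change was 0.05, 0.05 and 0.09, beside -0.01, -0.02 and 0.00 for all genes. The median size of the change, sign aside, was 0.15, 0.10 and 0.17 for the 10 genes and 0.10, 0.10 and 0.11 for all genes. All methods gave 1 direction for 6 of 10 genes, and for 57.3% of all genes. By limma within each method, HSP12 was the only 1 of the 10 called in 1 direction with all 3 methods, as were 3.31% of all genes. At least 1 method called 4 of the 10, against 26.1% of all genes.

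**Figure D1:**
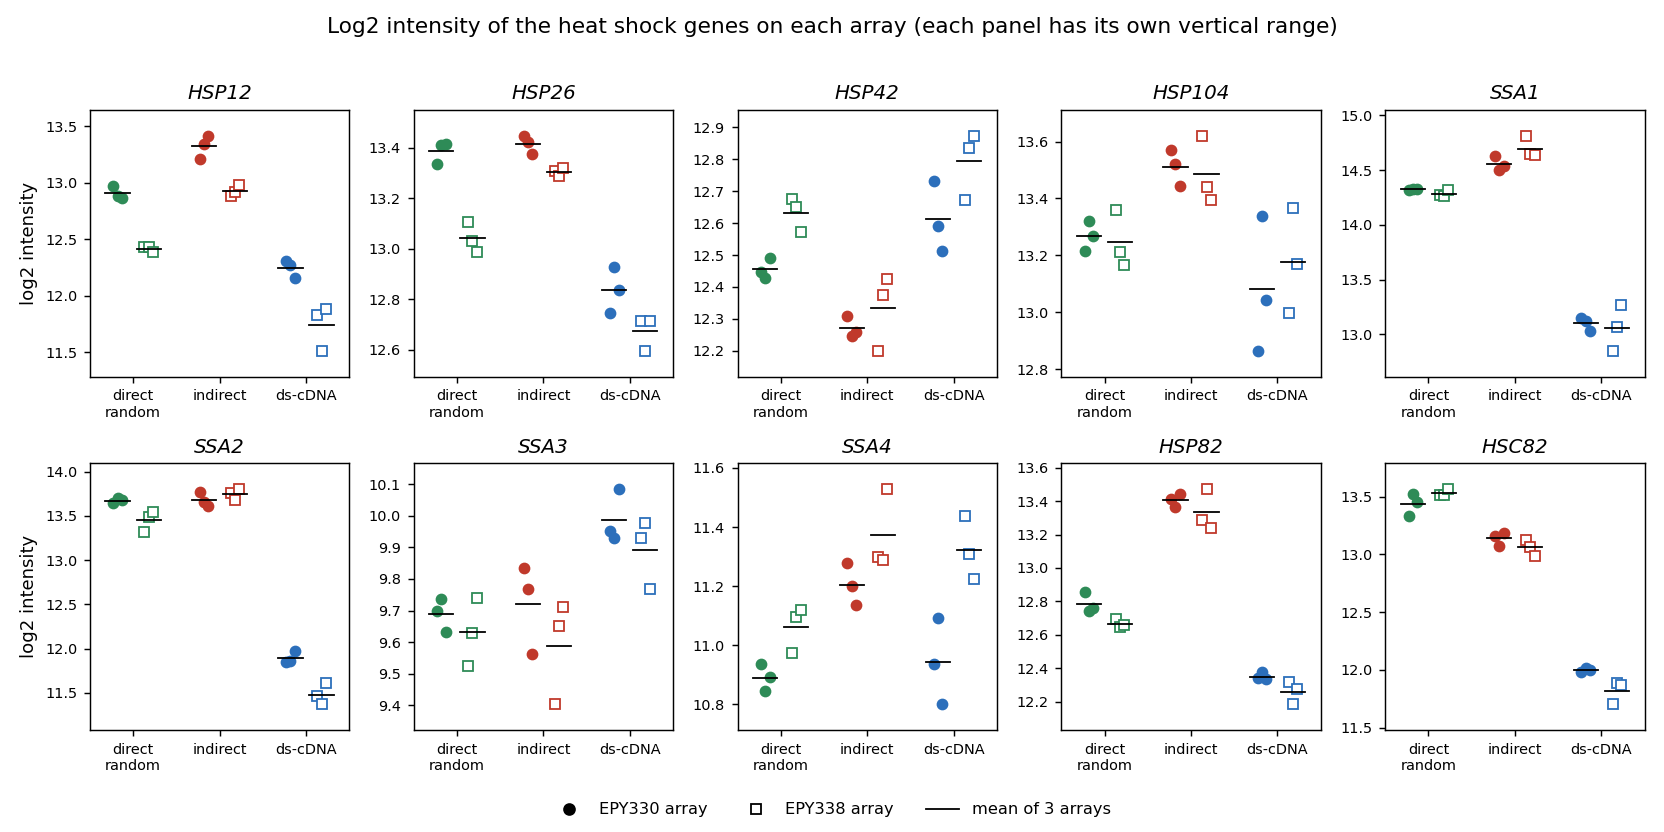
Log2 intensity of the 10 heat shock genes on each of the 18 arrays, 1 panel a gene with its own vertical range; filled circles are EPY330 arrays, open squares EPY338 arrays, and black lines the mean of 3 arrays. The circles of HSP12 and HSP26 lie above the squares with every method, those of SSA4 lie below, and those of HSP104 overlap the squares throughout.

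HSP12 encodes a small stress protein that associates with membranes. With the direct random method its log2 intensity was 12.97, 12.88 and 12.87 on the EPY330 arrays and 12.43, 12.43 and 12.39 on the EPY338 arrays. The indirect arrays read 13.21, 13.34 and 13.41 against 12.88, 12.92 and 12.98. For ds-cDNA the values were 12.31, 12.27 and 12.16 against 11.83, 11.51 and 11.88. All 9 EPY330 arrays were therefore above the EPY338 arrays of the same method, and the EPY338 arrays of the ds-cDNA method were the most scattered (SD 0.20, n = 3). The gene was 1.40-fold higher in EPY330 with the direct random method (95% confidence interval 1.31 to 1.51, limma adjusted p = 0.000408), 1.31-fold higher with indirect labeling (1.17 to 1.47, adjusted p = 0.0154) and 1.42-fold higher by ds-cDNA (1.19 to 1.70, adjusted p = 0.0458). The size of its change ranked at the 96.5th, 93.6th and 96.7th percentile of all genes. The direct random call held on leaving out any 1 of the 6 arrays. The indirect call was lost without EPY330 replicate 2 or 3 or EPY338 replicate 2 (adjusted p = 0.0572 to 0.0614). The ds-cDNA call was lost without any 1 of the 6 arrays (0.0595 to 0.126), with replicate number as a block (0.104), after median centring (0.0504) and after quantile normalization within the method (0.0623). Without 1 ds-cDNA array its log2 fold-change stayed between 0.39 and 0.57. Calls over all genes fell as well in those fits, from 363 to between 166 and 211.

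HSP26 encodes a small heat shock protein of the alpha-crystallin type that forms large assemblies and holds unfolded proteins. Its values with the direct random method were 13.33, 13.41 and 13.42 in EPY330 and 13.10, 13.03 and 12.99 in EPY338. Indirect labeling gave 13.45, 13.42 and 13.38 against 13.31, 13.29 and 13.32, and ds-cDNA gave 12.75, 12.93 and 12.84 against 12.71, 12.60 and 12.71. The strains did not overlap with any method. The difference was 1.27-fold with the direct random method (adjusted p = 0.00286) and held without any 1 array. Neither the 1.08-fold difference of the indirect arrays (adjusted p = 0.288) nor the 1.12-fold difference of the ds-cDNA arrays (adjusted p = 0.212) was called. The test of the difference between fold-changes gave 0.23 between direct random and indirect (adjusted p = 0.640) and 0.18 between direct random and ds-cDNA (adjusted p = 0.461) on the log2 scale, so a dependence on the method was not established.

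HSP42 encodes the other alpha-crystallin type small heat shock protein, which gathers misfolded proteins into cytosolic deposits. With the direct random method the EPY330 arrays read 12.45, 12.43 and 12.49 and the EPY338 arrays 12.67, 12.65 and 12.57, a lower intensity in EPY330 with no overlap. The ratio was 0.885 (log2 fold-change -0.18, adjusted p = 0.0302). Leaving out any 1 array other than EPY338 replicate 3 ended this call (adjusted p = 0.0502 to 0.0891), as did replicate number as a block (0.0794) and the fit of all 18 arrays (0.123). The indirect arrays read 12.31, 12.25 and 12.26 against 12.20, 12.38 and 12.43, and the ds-cDNA arrays 12.73, 12.59 and 12.51 against 12.67, 12.84 and 12.87. The strains overlapped with both, and the log2 fold-changes of -0.06 (adjusted p = 0.674) and -0.18 (adjusted p = 0.252) were not called.

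HSP104 encodes the AAA+ disaggregase that returns aggregated proteins to Hsp70. With the direct random method it read 13.22, 13.32 and 13.27 in EPY330 and 13.36, 13.21 and 13.16 in EPY338. The indirect method gave 13.57, 13.52 and 13.44 against 13.62, 13.44 and 13.39. The ds-cDNA method gave 12.86, 13.34 and 13.04 against 13.00, 13.37 and 13.17. The strains overlapped with each method, and the log2 fold-changes were 0.02, 0.03 and -0.10 (adjusted p = 0.836, 0.884 and 0.755). The 95% confidence intervals of the log2 fold-change were -0.12 to 0.16, -0.15 to 0.21 and -0.45 to 0.25. HSP104 had the largest replicate spread of the 10 genes with the ds-cDNA method, a pooled SD of 0.21 beside a median of 0.11 over all genes.

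**Figure D2:**
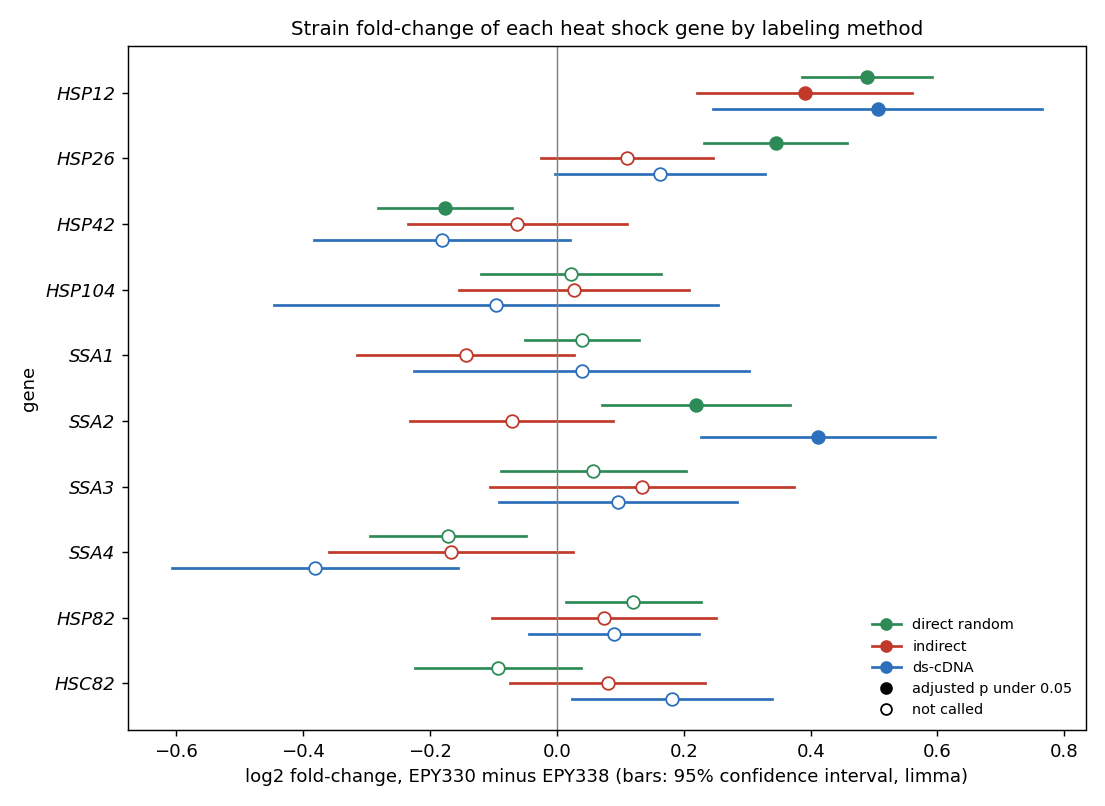
Log2 fold-change, EPY330 minus EPY338, of each gene with each labeling method; points are estimates, bars 95% confidence intervals of the limma fit of 6 arrays, and filled points have an adjusted p under 0.05. HSP12 is filled with all 3 methods between 0.39 and 0.51, whereas SSA2 lies at 0.22, -0.07 and 0.41.

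The SSA genes encode the cytosolic Hsp70 proteins, of which Ssa1 and Ssa2 are the abundant forms present in unstressed cells. SSA1 varied little with the direct random method, where the arrays read 14.31, 14.33 and 14.33 in EPY330 and 14.28, 14.26 and 14.32 in EPY338 (log2 fold-change 0.04, adjusted p = 0.507). With the indirect method EPY330 was lower without overlap, at 14.62, 14.50 and 14.54 against 14.81, 14.64 and 14.63, but the change of -0.14 was not called (adjusted p = 0.274). The ds-cDNA method gave 13.15, 13.12 and 13.03 against 12.85, 13.06 and 13.27, a log2 fold-change of 0.04 (adjusted p = 0.889).

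The strain difference of SSA2 was called with direct random and ds-cDNA labeling and not with indirect labeling. With the direct random method it read 13.65, 13.70 and 13.68 in EPY330 and 13.32, 13.49 and 13.55 in EPY338. With the ds-cDNA method it read 11.85, 11.86 and 11.97 against 11.47, 11.37 and 11.61. With both methods EPY330 was higher with no overlap, by 1.16-fold (adjusted p = 0.0446) and 1.33-fold (adjusted p = 0.0312). With the indirect method the strains overlapped, at 13.77, 13.65 and 13.61 against 13.76, 13.68 and 13.80, and the log2 fold-change was -0.07 (adjusted p = 0.591). Leaving out any 1 array other than EPY338 replicate 3 ended the direct random call (adjusted p = 0.0721 to 0.113) and the ds-cDNA call (0.0759 to 0.0885). The direct random call was also lost in the fit of all 18 arrays (0.0551), with the block (0.0565), after median centring (0.0544) and after quantile normalization (0.0709), and the ds-cDNA call with the block (0.0656).

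The difference between the indirect and ds-cDNA fold-changes of SSA2 was -0.48 on the log2 scale (95% confidence interval -0.70 to -0.27). In a fit of all 18 arrays that tests strain against method, this was called with an adjusted p of 0.0354, as were 0.697% of all genes. Without the dimmest 25% of the genes the adjusted p was 0.0592, and on leaving out 1 array in turn it ranged from 0.0181 to 0.0961, above the threshold for 12 of the 18 arrays. Those were 4 ds-cDNA arrays (EPY330 replicates 2 and 3 and EPY338 replicates 1 and 2), 4 indirect arrays (EPY330 replicates 2 and 3 and EPY338 replicates 1 and 3) and 4 direct random arrays (all 3 of EPY330 and EPY338 replicate 2). None of the other 9 genes was called in this test, and for the remaining pairs of methods 0 of 10 genes were called, with 0% of all genes for direct random against indirect and 0.575% for direct random against ds-cDNA. At an unadjusted p under 0.05 there were 2, 2 and 1 of 10 genes for direct random against indirect, direct random against ds-cDNA and indirect against ds-cDNA, beside 5.66, 10 and 11.5% of all genes. These were HSP26 and SSA2 in the first pair, HSP26 and HSC82 in the second and SSA2 in the third.

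SSA3 and SSA4 encode the inducible Hsp70 proteins. SSA3 lay at 9.63 to 9.74 in EPY330 and 9.53 to 9.74 in EPY338 on direct random arrays, at 9.56 to 9.84 and 9.40 to 9.71 on indirect arrays, and at 9.93 to 10.08 and 9.77 to 9.98 on ds-cDNA arrays. The strains overlapped each time, with log2 fold-changes of 0.06, 0.13 and 0.10 (adjusted p = 0.552, 0.491 and 0.508). SSA4 was lower in EPY330 without overlap with all 3 methods. Its EPY330 and EPY338 arrays read 10.93, 10.84 and 10.89 against 10.97, 11.09 and 11.12 for direct random, 11.28, 11.20 and 11.14 against 11.30, 11.29 and 11.53 for indirect, and 10.93, 11.09 and 10.80 against 11.44, 11.31 and 11.22 for ds-cDNA. The log2 fold-changes were -0.17, -0.17 and -0.38, and none was called (adjusted p = 0.0541, 0.258 and 0.0648). The direct random value passed the threshold after median centring (0.0377), after quantile normalization within the method (0.0492) and without EPY338 replicate 1 (0.0302). The ds-cDNA value passed it in the fit of all 18 arrays (0.00402), with a trended prior variance (0.0467) and without the dimmest 25% of the genes (0.0374).

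HSP82 and HSC82 encode Hsp90, the former as the stress-inducible and the latter as the constitutive gene. HSP82 read 12.85, 12.74 and 12.76 in EPY330 and 12.70, 12.65 and 12.66 in EPY338 with the direct random method, and 12.34, 12.38 and 12.34 against 12.32, 12.19 and 12.28 with the ds-cDNA method, with no overlap in either. The log2 fold-changes of 0.12 (adjusted p = 0.0977) and 0.09 (adjusted p = 0.383) were not called. On indirect arrays the strains overlapped, at 13.37 to 13.44 and 13.24 to 13.47, with a log2 fold-change of 0.07 (adjusted p = 0.611).

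HSC82 differed in sign between the methods. The log2 fold-change was -0.09 for direct random (arrays 13.33 to 13.52 in EPY330 and 13.51 to 13.56 in EPY338), 0.08 for indirect (13.07 to 13.18 and 12.99 to 13.13) and 0.18 for ds-cDNA (11.98 to 12.02 and 11.70 to 11.89, no overlap). None was called (adjusted p = 0.272, 0.526 and 0.163). The direct random and ds-cDNA fold-changes differed by -0.27, with an unadjusted p of 0.00714 and an adjusted p of 0.251 in the limma fit of 18 arrays.

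The replicate spread differed between the methods. The median pooled SD of the 10 genes was 0.058, 0.086 and 0.104, beside 0.073, 0.102 and 0.112 for all genes. It was above the all-gene median for 3, 2 and 4 of the 10 genes. SSA1 had the smallest SD, 0.023, with the direct random method, and HSP26 the smallest, 0.029, with the indirect method.

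The same RNA pools were labeled with each method, so the mean intensity over both strains compares the methods as whole protocols. These differed in more than the labeling step. The cDNA hybridized was 5, 0.3 and 4 μg, the indirect method used another dye, and scanner gain was set for each array. Priming differed too, because the indirect and ds-cDNA methods began with oligo(dT) and the direct random method also copied ribosomal RNA. By the study's account the ds-cDNA product also held the sense strand, which the arrays do not capture. The part of each in the differences below was not tested. Between indirect and ds-cDNA all 10 genes differed, against 89% of all genes, and 8 of them were brighter with indirect (40.4% of all genes). HSP42 and SSA3 were brighter with ds-cDNA (48.6% of all genes). Between direct random and ds-cDNA, 9 of 10 genes differed, against 87.1% of all genes. Of these, 6 were brighter with direct random (37.4% of all genes) and 3 (HSP42, SSA3 and SSA4) with ds-cDNA (49.7%), and HSP104 was not called (0.13, adjusted p = 0.125). Between direct random and indirect, 9 of 10 differed, against 64.5% of all genes. HSP42 and HSC82 were brighter with direct random (30.5% of all genes), 7 genes were brighter with indirect (34% of all genes), and SSA3 differed by 0.01 (adjusted p = 0.950).

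**Figure D3:**
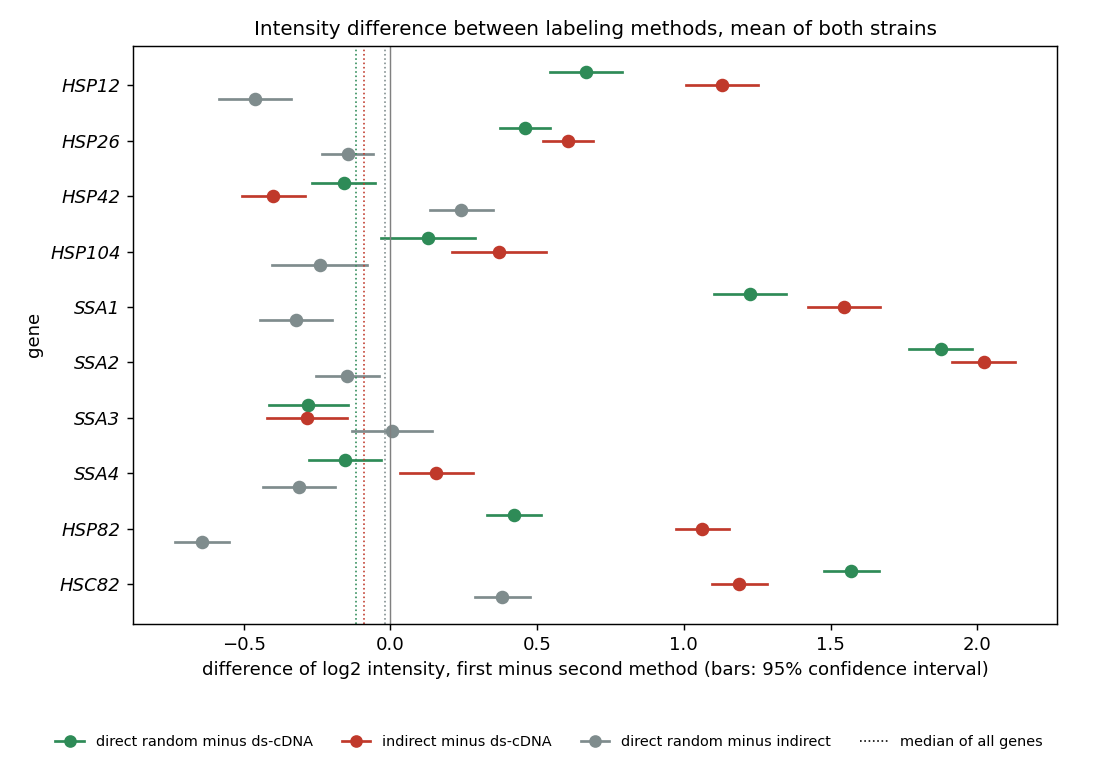
Difference of log2 intensity between labeling methods for each gene, averaged over both strains; points are estimates of the limma fit of 18 arrays, bars 95% confidence intervals, and dotted lines the median of all genes for each pair of methods. SSA2, SSA1 and HSC82 lie farthest to the right, at 1.19 to 2.02 above the ds-cDNA method.

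The 3 genes with the largest differences belonged to the near-identical pairs. SSA2 had a mean of 13.56 with direct random, 13.71 with indirect and 11.69 with ds-cDNA, and was 4.06-fold brighter with indirect and 3.67-fold brighter with direct random than with ds-cDNA. These differences ranked at the 94.2nd and 94.1st percentile of all genes. SSA1 was 2.92-fold and 2.34-fold brighter, and HSC82 2.28-fold and 2.97-fold brighter. HSP82, the partner of HSC82, was 2.09-fold and 1.34-fold brighter, and between direct random and indirect the partners moved in opposite directions, HSC82 by 0.38 and HSP82 by -0.64 (both called). HSP12 was 2.19-fold and 1.59-fold brighter, and HSP26 1.52-fold and 1.37-fold.

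Differences over all genes and over bright genes are given for comparison. The median difference of all genes was -0.02, -0.12 and -0.09 for direct random minus indirect, direct random minus ds-cDNA and indirect minus ds-cDNA. In the brightest 10% of genes (574 genes), which held 8 of the 10 heat shock genes (not SSA3 and SSA4), the medians were 0.02, 0.40 and 0.32. These genes were picked by their mean over the 18 arrays, of which 6 are ds-cDNA arrays, so the choice itself favors genes that are brighter with the other methods. The part of brightness in the differences of single genes was not tested. When each array was centred on its own median no difference changed sign, but between direct random and ds-cDNA HSP42 (adjusted p = 0.285) and SSA4 (0.377) were no longer called and HSP104 was (0.00982). Array medians lay between 9.99 and 10.02 with direct random and indirect and between 10.09 and 10.12 with ds-cDNA.

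**Figure D4:**
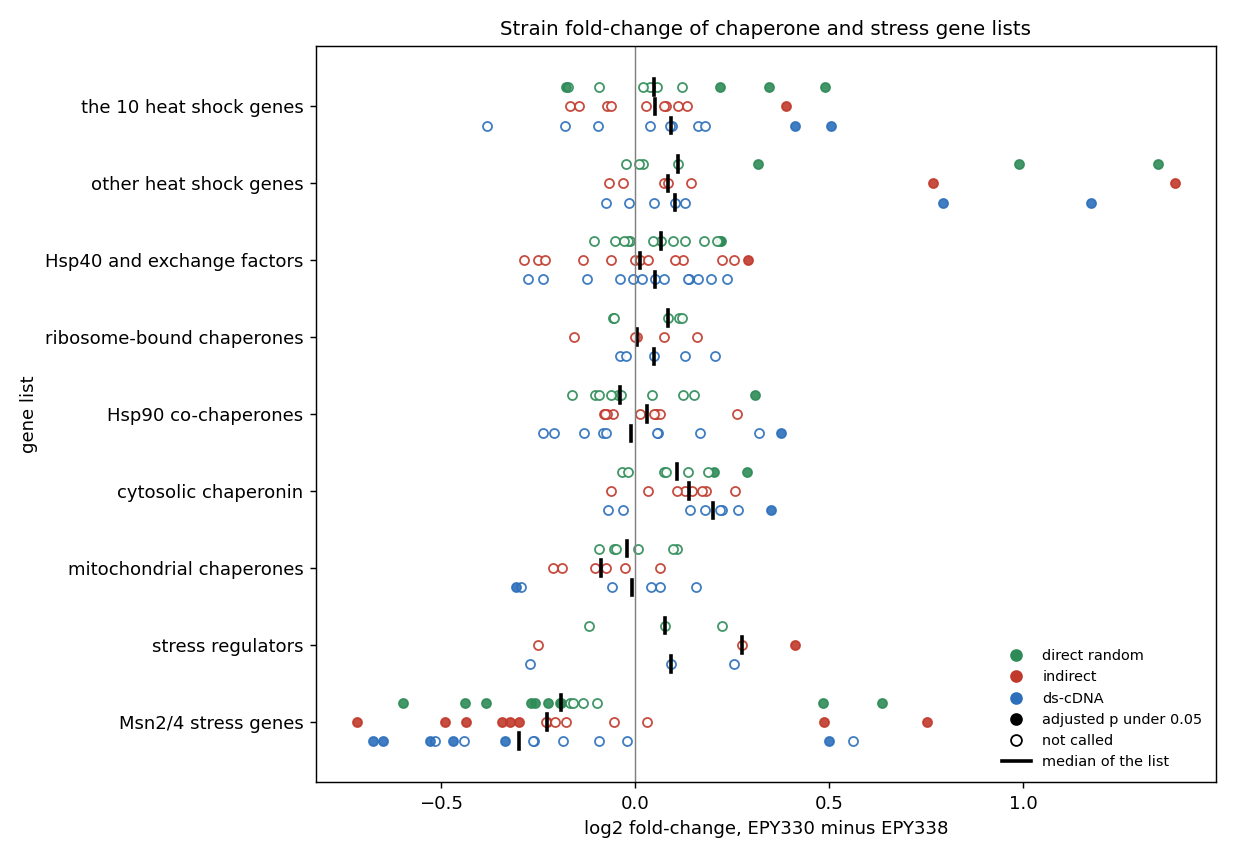
Log2 fold-change, EPY330 minus EPY338, of every measured gene in the list of 10 heat shock genes and in 8 related lists, by labeling method; filled points have an adjusted p under 0.05 and black bars are list medians. HSP31 and BTN2 lie farthest to the right, between 0.77 and 1.39, and most Msn2/4 stress genes lie below 0.

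Chaperone genes outside the 10 were followed in 6 lists, and stress regulators and general stress genes in 2 more. Calls in these lists stand beside 11, 4.48 and 3.76% of all genes called higher and 11.4, 4.6 and 2.56% called lower. Of 7 measured genes in the list of other heat shock genes, 3, 2 and 2 were called higher in EPY330 with direct random, indirect and ds-cDNA and 0 lower. HSP31, encoding a stress-induced protein of the DJ-1 family, was 2.54-, 2.62- and 2.26-fold higher (limma adjusted p = 7.42e-05, 0.000283 and 0.000812). BTN2, whose product sequesters misfolded proteins with Hsp42, was 1.99-, 1.70- and 1.73-fold higher (adjusted p = 0.000176, 0.00114 and 0.00800). HSP30, encoding a stress-induced plasma membrane protein, was 1.25-fold higher with direct random (adjusted p = 0.00816), 1.05-fold with indirect (adjusted p = 0.653) and 1.04-fold with ds-cDNA (adjusted p = 0.819), and was picked out after its values were seen. The median log2 fold-change of this list was 0.11, 0.09 and 0.10. HSP31 and BTN2 kept their calls on leaving out any 1 array. The ds-cDNA call of BTN2 was lost in the limma fit with replicate number as a block (adjusted p = 0.0507). It was also lost with the unpaired test used in the study, whereas HSP31 kept its calls in all alternatives.

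Helpers of Hsp70 and Hsp90 were counted in the same way. Of 13 Hsp40 and nucleotide exchange factor genes, 2, 1 and 0 were called higher and 0 lower, beside 22.4, 9.08 and 6.33% of all genes called in either direction, with medians of 0.07, 0.01 and 0.05. YDJ1, the main cytosolic Hsp40, had log2 fold-changes of 0.22, 0.25 and 0.24 (adjusted p = 0.0133, 0.0565 and 0.191). In the limma fit of all 18 arrays its direct random call was lost (0.0596), and its indirect (0.0240) and ds-cDNA (0.0335) values passed the threshold. The indirect value also passed with a trended prior variance (0.0374) and after quantile normalization (0.0387). SIS1, an essential Hsp40, had -0.10, -0.14 and -0.28, none called. The other calls in this list, named after their values were seen, were JJJ3 with direct random and FES1 with indirect. JJJ3 had 0.22, 0.13 and 0.16 (adjusted p = 0.00743, 0.267 and 0.126). FES1 had 0.18, 0.29 and 0.02 (adjusted p = 0.0634, 0.0249 and 0.956), and its call was lost without any 1 EPY330 array or without EPY338 replicate 2. None of 5 ribosome-bound chaperone genes was called by limma. At an unadjusted p under 0.05 there were 0, 2 and 0 of them, beside 37.3, 25.4 and 24.3% of all genes. JJJ1 had 0.11, -0.16 and -0.04 and SSB1 0.08, 0.16 and 0.05. Of 10 Hsp90 co-chaperone genes 1, 0 and 1 were called, in each case CNS1, higher by 0.31 (adjusted p = 0.00427) and 0.38 (adjusted p = 0.0435) with direct random and ds-cDNA, and at 0.26 with indirect, not called (adjusted p = 0.119). The ds-cDNA call of CNS1 was lost without any 1 array. STI1, which links Hsp70 to Hsp90, had -0.04, -0.06 and 0.32, none called.

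Among the 8 genes of the cytosolic chaperonin, which folds actin and tubulin, 2, 0 and 1 were called higher and 0 lower, with medians of 0.11, 0.14 and 0.20. With direct random these were CCT5 (0.29, adjusted p = 0.0148) and CCT2 (0.20, adjusted p = 0.0149, 0.0509 without EPY330 replicate 1), the latter named after its values were seen. The direct random call of CCT2 was also lost in the limma fit of all 18 arrays (0.0847) and with replicate number as a block (0.0517). CCT2 had 0.13 and 0.18 with indirect and ds-cDNA, not called (adjusted p = 0.289 and 0.311). CCT5 had 0.22 with ds-cDNA (adjusted p = 0.170) and 0.26 with indirect (adjusted p = 0.0550), neither called. In the limma fit of all 18 arrays both values passed the threshold (0.0432 with ds-cDNA and 0.0230 with indirect). The indirect value also passed with a trended prior variance (0.0368), after quantile normalization (0.0410) and with replicate number as a block (0.0460). CCT7 had -0.03, 0.18 and 0.35 (adjusted p = 0.663, 0.242 and 0.0435). It was called with ds-cDNA, a call that was lost without any 1 array other than EPY338 replicate 3. Of 6 mitochondrial chaperone genes 0, 0 and 1 were called. MGE1, the exchange factor of mitochondrial Hsp70, was lower in EPY330 with ds-cDNA (-0.31, adjusted p = 0.0295, lost without any 1 array) and had -0.05 and -0.21 with direct random and indirect (adjusted p = 0.398 and 0.0864), and HSP78, the mitochondrial disaggregase, had -0.09, -0.19 and -0.29, none called.

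The regulators of these genes were also measured. Of HSF1, MSN2 and MSN4, limma called MSN2 with the indirect method (log2 fold-change 0.41, adjusted p = 0.0152), a call lost without EPY330 replicate 1 or 3 or EPY338 replicate 2 (0.0590 to 0.0650). MSN2 had 0.23 and 0.26 with direct random and ds-cDNA (adjusted p = 0.101 and 0.269). HSF1 had -0.12, -0.25 and -0.27 and was not called (adjusted p = 0.151, 0.0807 and 0.442).

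Of 14 general stress genes that respond to Msn2 and Msn4, 2 were called higher and 8 lower in EPY330 with direct random, 2 higher and 6 lower with indirect, and 1 higher and 5 lower with ds-cDNA. The shares of all genes were 11, 4.48 and 3.76% higher and 11.4, 4.6 and 2.56% lower. Medians were -0.19, -0.23 and -0.30. HSP12, which belongs to the same class of genes by its known promoter, moved in the opposite direction to most of this list, as did CTT1 and YGP1 within it. Of the other heat shock genes, HSP42 and SSA4 were below 0 with every method, and HSP26, SSA3 and HSP82 above 0. GAD1, encoding glutamate decarboxylase, was lower in EPY330, with log2 fold-changes of -0.60, -0.72 and -0.67 (adjusted p = 0.000436, 0.0105 and 0.0129; 0.0542 with ds-cDNA without EPY338 replicate 2), and SOL4, encoding a 6-phosphogluconolactonase, was at -0.44, -0.49 and -0.65 (adjusted p = 0.00477, 0.00282 and 0.00255). SPI1, a cell wall protein gene, was lower at -0.27, -0.30 and -0.47 (adjusted p = 0.0160, 0.0393 and 0.0224). The SPI1 calls were lost without EPY330 replicate 1 or EPY338 replicate 2 with direct random. With indirect and with ds-cDNA they were lost without any 1 array other than EPY338 replicate 2. The unpaired test used in the study ended the SPI1 calls with all methods and the indirect and ds-cDNA calls of GAD1.

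CTT1, the cytosolic catalase gene, was higher in EPY330 by 0.48, 0.49 and 0.50 (adjusted p = 0.00556, 0.00703 and 0.0265). Its ds-cDNA call was lost without any 1 array other than EPY330 replicate 1, and in the limma fit with the block (0.0738). The unpaired test used in the study ended the CTT1 calls with all methods. YGP1, a secreted glycoprotein gene named after its values were seen, was the other higher gene, by 0.64 and 0.75 with direct random and indirect (adjusted p = 0.000144 and 0.00384) and by 0.56 with ds-cDNA, not called (0.0624). The ds-cDNA value of YGP1 passed the threshold in the limma fit of all 18 arrays (0.00195), with a trended prior variance (0.0133) and without the dimmest 25% of the genes (0.00953). TMA10 and HOR7, also named afterwards, completed the genes called lower with ds-cDNA, at -0.53 (adjusted p = 0.0143) and -0.34 (adjusted p = 0.0258). TMA10 had -0.19 with direct random, also called (adjusted p = 0.0284), and -0.23 with indirect (adjusted p = 0.110). HOR7 had -0.16 and -0.05 (adjusted p = 0.127 and 0.696). Leaving out EPY330 replicate 2 or any 1 EPY338 array ended the ds-cDNA call of TMA10, and any 1 array other than EPY338 replicate 2 that of HOR7. The direct random call of TMA10 was lost without EPY330 replicate 1 or 3 or EPY338 replicate 2 or 3.

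The genes next to the 10 in the annotation were examined as well. Of 17 measured neighbors, 0, 1 and 0 were called, beside 22.4, 9.08 and 6.33% of all genes. The called neighbor was PAU17 (YLL025W), which lies between HSP104 and SSA2 and was lower in EPY330 with the indirect method (log2 fold-change -0.41, adjusted p = 0.00661). With direct random it had -0.19 (adjusted p = 0.150), and with ds-cDNA -0.69 without overlap of the strains, not called (adjusted p = 0.0727). No annotated gene overlapped any of the 10.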

How the data were processed

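NimbleGen Saccharomyces cerevisiae expression arrays (18, placed on 5 slides, whose allocation is not used here because the labels do not give it) carried cDNA made from 10 μg of total RNA. Image analysis was done in NimbleScan. The authors summarized and quantile normalized probes by RMA in ArrayStar 3.0, and the deposited values are log2 intensities between 7.25 and 15.88. The genome build of the probes is not given in the sources used here. Of 5861 entries, 122 without values were left out. Symbols for 5733 of the 5739 genes came from a RefSeq annotation, matched by systematic name. All 9 gene lists, the 10 genes among them, were chosen with earlier results of these data known.

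Strains were compared within each method by limma 3.58.1 (R 4.3.3), with Benjamini-Hochberg adjustment over all genes. A fit of all 18 arrays with 6 group means tested whether fold-changes or intensities differed between methods. Scripts were tested on simulated data. The alternatives tried were the 18-array fit, the methods' t-test (on log2 values and, separately, on linear ones), a trended prior variance, median centring, quantile normalization within the method, omission of the dimmest 25% of genes, replicate number as a block, and omission of each array. Besides the 10 genes, a list's genes were named if called in the same direction with all methods (at most 4, by mean size of change), otherwise the 2 with the largest mean size of change. Same-numbered indirect arrays of the strains deviated together (correlations over genes of 0.123, 0.149 and 0.253), each over 0.1, the rule used here for paired numbers. Indirect arrays of different number had correlations of -0.321 to 0.205, so that 0.123 and 0.149 lay within this range and pairing was not established. The fits reported nevertheless hold no block, as in the study's unpaired test, and the block is an alternative. The number of arrays limits the precision.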

Additional observations from a re-analysis of the deposited data

Results flagged for a closer look

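The strain fold-change of SSA2 differed between labeling methods by a test of the difference itself. On the log2 scale it was -0.07 for indirect and 0.41 for ds-cDNA, a difference of -0.48 in the limma fit of 18 arrays (adjusted p = 0.0354 over all genes, range over its alternatives 0.0181 to 0.0961). Both strains lay lower in intensity with ds-cDNA (mean difference 2.02), and the part of that gap in the difference was not tested. Groups of 3 arrays were too small for a test of outlying arrays within a group.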

How the results depend on the processing

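Of 1751 recomputed values of 119 results, 1505 kept their direction and their side of the threshold, 167 lost a call, 28 gained one, 14 changed sign and 37 counts moved by over 1.5 times. With direct random, 4 of the 10 genes were called, against 2 with each of the methods' t-tests (log2 and linear), 2 in the fit of all 18 arrays and 2 to 4 on leaving out 1 array. With indirect the count was 1, against 0 with both t-tests and 0 to 1 on leaving out 1 array. With ds-cDNA it was 2, against 0 with both t-tests, 1 after median centring, 1 after quantile normalization, 3 (SSA4 added) in the fit of 18 arrays, with a trended prior variance or on omitting the dimmest 25% of the genes, and 0 to 1 on leaving out 1 array. The count of genes whose fold-change differed between indirect and ds-cDNA was 1, against 0 without the dimmest 25% of the genes and 0 to 1 on leaving out 1 array. Among the 10 genes, the t-tests on log2 and linear values ended the direct random calls of SSA2 (adjusted p = 0.133 and 0.117) and HSP42 (0.0600 and 0.0634), the indirect call of HSP12 (0.0838 and 0.0966) and the ds-cDNA calls of HSP12 (0.144 and 0.122) and SSA2 (0.103 and 0.0993). In the other lists they ended direct random calls of CCT5, CTT1, SPI1 and TMA10. Indirect calls ended were those of MSN2 (0.0934 and 0.103), GAD1, CTT1, SPI1 and YGP1. For ds-cDNA these were BTN2, CNS1, CCT7, MGE1, GAD1, CTT1, SPI1, TMA10 and HOR7. The log2 t-test alone ended the direct random call of HSP30 (0.0503). HSP12 and HSP26 kept their direct random calls in all 14 alternatives.

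With replicate number as a block, 2 genes were called with direct random, 1 with indirect and 0 with ds-cDNA. Same-numbered arrays did not deviate together with direct random (correlations 0.008, -0.096 and -0.040) or ds-cDNA (-0.082, 0.023 and -0.187), and 0, 4 and 1 of the 6 arrays correlated best with their own number with direct random, indirect and ds-cDNA. The block changed 1 indirect call among the named genes, that of CCT5, which was gained. With direct random it ended the calls of SSA2, HSP42 and CCT2, and MSN2 gained a call (limma adjusted p = 0.0424). With ds-cDNA it ended the calls of HSP12, SSA2, BTN2, CNS1, CCT7, MGE1, GAD1, CTT1, SPI1, TMA10 and HOR7.

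Over all genes, calls numbered 1288, 521 and 363 with direct random, indirect and ds-cDNA, 651, 158 and 128 with the log2 t-test, 652, 147 and 97 with the linear t-test and 713, 880 and 994 in the fit of 18 arrays. With ds-cDNA they numbered 599 with a trended prior variance and 115 with the block. Without 1 array, calls over all genes numbered 850 to 1026, 274 to 460 and 166 to 211 with direct random, indirect and ds-cDNA. Calls lost by single genes on leaving out 1 array stand beside this general fall. On leaving out 1 array, log2 fold-changes ranged from -0.0189 to 0.0791, -0.0181 to 0.0956 and -0.224 to 0.0132 for HSP104 with direct random, indirect and ds-cDNA, and with ds-cDNA from -0.0670 to 0.143 for SSA1, -0.131 to 0.0510 for JJJ1, -0.0487 to 0.137 for SSB1, -0.0569 to 0.111 for HSP30 and -0.101 to 0.0971 for FES1. FES1 was also -0.00084 after median centring and -0.0105 after quantile normalization with ds-cDNA. The cause was not tested, and the spread of 3 arrays limits what could be called.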
